A study of Homo sapiens with 5 samples.

Results

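The regions described here are the Smad3 peaks of BT549 cells given TGF-beta, after mock transfection or after transfection with polyI:C. They are 1139 peaks, 353 from the mock library and 786 from the polyI:C library, of 19372 peaks in the 5 lists of the series. A peak is a stretch of the genome where chromatin precipitated with an anti-Smad3 antibody gave more reads than a peak caller required. All peaks of both lists were taken, and a peak was called shared when it had at least 1 base in common with a peak of the other list.

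BT549 is an established human cell line derived from a basal-like breast tumour. Both groups were HA cells, which carry a control vector delivered by lentivirus, and both received TGF-beta at 1 ng/ml for 1.5 h. They differed in the transfection, which was mock in the one and polyI:C, a synthetic double-stranded RNA, in the other. Each group held 1 library, so no difference between them could be tested, and a difference in precipitation or sequencing cannot be told apart from one in the cells. The other 3 lists used for comparison were IRF3 in HA cells after polyI:C (4125 peaks), IRF3 in cells with constitutively active Smad3 (caSmad3) after polyI:C (8067 peaks) and Smad3 in those caSmad3 cells after polyI:C (6041 peaks), none of them with TGF-beta. The lists hold positions and no scores. Read depth is unknown, so neither the length of a list nor the absence of a peak measures how much Smad3 was bound. They hold no expression either, so the identity of the cells was not checked against marker genes.

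Smad3 is phosphorylated by the activated TGF-beta receptor, joins Smad4, enters the nucleus and binds short elements that carry the letters CAGAC, mostly together with other factors such as AP-1. The ID genes, which encode inhibitors of differentiation, and genes of the matrix and of plasminogen activation are among its classical targets. PolyI:C mimics viral RNA and activates IRF3, which binds interferon response elements with repeats of GAAANNGAA in genes such as ISG15. The study was designed around an inhibitory effect of polyI:C that active Smad3 was meant to rescue.

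The sequences upstream of 6 start sites are shown because the lists shared a site at some of them and not at others. Within 250 bases before the start, ID1, CCDC80 and OGA had peaks of both libraries, and JUN, GADD45B and ISG15 had a polyI:C peak alone. The ID1 peaks met by 2 bases only. Each sequence is the stretch of 250 bases before the RefSeq start site (GRCh38.p14), 5′ to 3′ on the strand of the gene. Capitals mark the matches, on either strand, to 5 short motifs. CAGAC is the Smad element, GGCGCC a GC-rich Smad element, GAAANNGAA the core of an interferon response element, GGAATG a TEAD element and GGGCGG the Sp1 box.
ID1: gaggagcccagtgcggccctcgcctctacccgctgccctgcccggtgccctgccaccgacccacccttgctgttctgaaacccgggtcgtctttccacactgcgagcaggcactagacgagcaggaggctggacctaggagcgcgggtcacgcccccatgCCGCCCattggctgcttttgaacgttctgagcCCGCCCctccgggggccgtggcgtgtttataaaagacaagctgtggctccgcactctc
CCDC80: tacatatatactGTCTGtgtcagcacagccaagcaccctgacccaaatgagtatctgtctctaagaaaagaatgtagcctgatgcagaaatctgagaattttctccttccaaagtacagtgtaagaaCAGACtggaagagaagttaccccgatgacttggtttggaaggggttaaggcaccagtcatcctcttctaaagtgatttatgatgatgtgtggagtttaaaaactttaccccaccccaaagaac
OGA: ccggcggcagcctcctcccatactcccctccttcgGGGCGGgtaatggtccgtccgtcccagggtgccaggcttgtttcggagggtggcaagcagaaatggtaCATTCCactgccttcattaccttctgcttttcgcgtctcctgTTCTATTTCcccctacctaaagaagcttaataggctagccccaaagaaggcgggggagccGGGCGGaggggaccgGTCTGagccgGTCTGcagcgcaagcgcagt
JUN: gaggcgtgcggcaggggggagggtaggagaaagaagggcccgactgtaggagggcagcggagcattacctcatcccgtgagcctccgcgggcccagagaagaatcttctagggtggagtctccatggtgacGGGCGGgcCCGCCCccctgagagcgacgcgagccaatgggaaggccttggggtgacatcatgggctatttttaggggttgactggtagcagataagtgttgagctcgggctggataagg
GADD45B: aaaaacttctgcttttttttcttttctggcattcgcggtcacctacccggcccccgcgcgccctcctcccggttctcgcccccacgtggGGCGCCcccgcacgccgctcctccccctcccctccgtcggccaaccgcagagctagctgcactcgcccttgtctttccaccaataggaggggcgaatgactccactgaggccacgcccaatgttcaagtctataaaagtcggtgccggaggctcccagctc
ISG15: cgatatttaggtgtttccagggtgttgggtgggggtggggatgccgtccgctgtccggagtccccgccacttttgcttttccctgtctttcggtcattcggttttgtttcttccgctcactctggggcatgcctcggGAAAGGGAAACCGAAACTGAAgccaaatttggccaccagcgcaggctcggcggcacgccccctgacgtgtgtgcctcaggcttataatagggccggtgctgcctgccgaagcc

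The ID1 stretch (chr20:31605039-31605288, plus strand) has 2 matches, both to GGGCGG. Mock peaks cover 109 of its bases and polyI:C peaks 105, and both matches lie under the mock peak and neither under the polyI:C peak. The CCDC80 stretch (chr3:112641144-112641393, minus strand) carries CAGAC at 2 positions, with 159 bases under the mock peak and 202 under the polyI:C peak. The match nearer the start lies under both peaks and the other under neither. CCDC80 encodes a secreted protein of the extracellular matrix. The OGA stretch (chr10:101818445-101818694, minus strand) has 6 matches to 4 of the motifs, with 194 and 202 bases covered. All of them but the GGGCGG farthest from the start lie under both peaks. OGA encodes the enzyme that removes O-linked N-acetylglucosamine from proteins. For JUN (chr1:58784048-58784297, minus strand) and GADD45B (chr19:2475877-2476126, plus strand), 35 and 52 bases lie under a polyI:C peak and 0 under a mock peak. The marked matches of JUN and GADD45B lie outside the polyI:C peak, and under IRF3 peaks of HA and caSmad3 cells and a Smad3 peak of caSmad3 cells. ISG15, an ubiquitin-like antiviral protein, has 3 overlapping GAAANNGAA matches (chr1:1013247-1013496, plus strand), from 113 to 93 bases before the start. Of that stretch 70 bases lie under the polyI:C Smad3 peak, which begins at 1013427, after the last GAAANNGAA match ends at 1013404. The matches lie under the IRF3 peaks of HA and caSmad3 cells.

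Most mock peaks were also listed after polyI:C, and most polyI:C peaks were not listed after mock. Of the 353 mock peaks 247 were shared (70.0%, 95% Clopper-Pearson interval 64.9 to 74.7), and of the 786 polyI:C peaks 238 (30.3%, 27.1 to 33.6). The numbers shared are nearly equal from either side, so the lower share for polyI:C follows from its longer list and is no separate result. All intervals are on counts of peaks and cover counting error only. They hold no spread between libraries, since each list came from 1 library, and peaks on near-identical gene copies are not independent. Nor do they allow for reads amplified by PCR, which are not independent molecules. A part of the shared peaks lay on repeated genes of structural RNA (rRNA, snRNA, snoRNA, tRNA) and of histones, here with any part of the peak within 1 kb of such a gene. Without them 158 of 261 mock peaks (60.5%, 54.3 to 66.5) and 154 of 645 polyI:C peaks (23.9%, 20.6 to 27.4) were shared. At these loci themselves 89 of 92 mock peaks (96.7%) and 84 of 141 polyI:C peaks (59.6%) were shared.

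**Figure D1:**
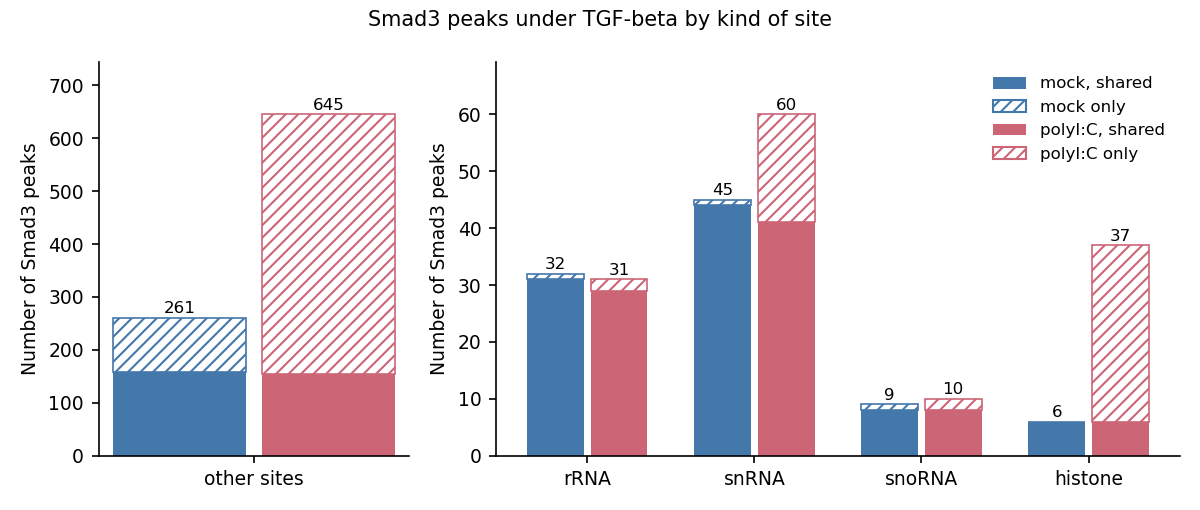
Number of Smad3 peaks in the mock and polyI:C lists by kind of site, on separate scales for sites outside structural RNA and histone loci (left) and at them (right); solid bars are peaks shared with the other list and hatched bars are peaks of 1 list alone. The solid parts are alike in height in both libraries, while the hatched parts are large for polyI:C at other sites (491 peaks) and at histone genes (31 peaks); 2 polyI:C peaks at tRNA genes and 1 at another RNA gene are not drawn.

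Structural RNA and histone loci made up 26.1% of the mock list (21.6 to 31.0) and 17.9% of the polyI:C list (15.3 to 20.8). In the other 3 lists they made up 6.13% for IRF3 in HA cells, 3.88% for IRF3 in caSmad3 cells and 4.85% for Smad3 in caSmad3 cells. Those lists are longer, and held 253, 313 and 293 such peaks, against 92 in the mock list and 141 in the polyI:C list. Almost all shared peaks at these loci were listed for IRF3 as well: 88 of the 89 shared mock peaks and all 84 shared polyI:C peaks overlapped an IRF3 peak of HA cells. Input or IgG controls were not used here, and whether these peaks depend on the antibody was not tested.

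Ribosomal RNA genes, which are transcribed by RNA polymerase I and lie in near-identical copies, held 32 mock peaks (31 shared) and 31 polyI:C peaks (29 shared). On the copies RNA45SN1, RNA45SN2 and RNA45SN3 of chromosome 21, mock peaks numbered 10, 8 and 10 and covered 5368, 4734 and 4955 bases. PolyI:C peaks numbered 9, 10 and 8 there and covered 5629, 5075 and 5179 bases. In all 3 copies and both libraries the widest peak lay over 18S, from 1504 to 1809 bases in the mock list and from 1761 to 1891 bases in the polyI:C list. Reads from such copies cannot be assigned to 1 copy with certainty, and how reads with several matches were treated is not given in the sources used here.

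**Figure D2:**
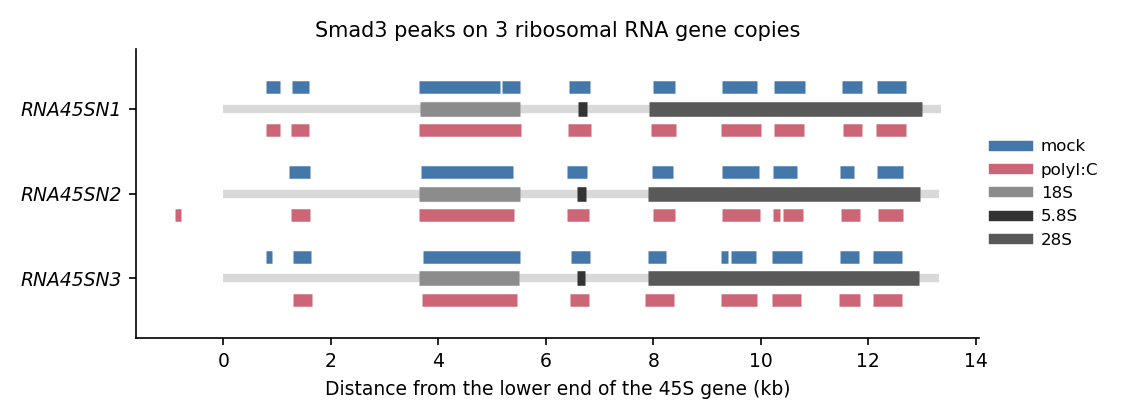
Positions of Smad3 peaks along 3 copies of the 45S ribosomal RNA gene, in kb from the lower end of each gene, with mock peaks above and polyI:C peaks below each copy and the 18S, 5.8S and 28S parts in grey. Peaks of both libraries lie over each other along each copy, with the widest over 18S; the exceptions are a polyI:C peak before RNA45SN2 and a mock peak near the lower end of RNA45SN3.

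The snRNA genes, whose products build the spliceosome, held 45 mock peaks, of which 44 were shared, and 60 polyI:C peaks, of which 41 were shared. At U1 genes all 13 mock peaks were shared, and 12 polyI:C peaks were shared and 9 were not. At U2 genes all 16 mock peaks were shared, with 16 shared and 6 further polyI:C peaks. Of these, 13 mock peaks, 13 shared polyI:C peaks and 5 further polyI:C peaks lay in the tandem array of chromosome 17, and the rest at U2-like genes elsewhere. At U3 genes (SNORD3), which encode a snoRNA of rRNA processing, each list had 5 peaks and all were shared. These gene families hold near-identical copies too, so the counts by gene are uncertain.

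Histone genes differed most from this. The 6 mock peaks at histone loci were all shared, but of 37 polyI:C peaks there only 6 were (16.2%, 6.19 to 32.0). A mock peak lay within 1 kb of 7 of 69 histone genes (10.1%), and a polyI:C peak of 32 (46.4%), among them the same 7. Of all coding genes, 0.644% had a mock peak and 1.85% a polyI:C peak inside the gene or up to 1 kb away. In the cluster of chromosome 1 the mock list had 4 peaks and the polyI:C list 16, and in that of chromosome 6 the counts were 2 and 20. H4C8, a histone H4 gene, had 2 peaks in each list, of 132 and 99 bases in the mock list and 327 and 189 bases in the polyI:C list. H3C14, a histone H3 gene, had a peak over its start in both, of 134 bases (mock) and 193 bases (polyI:C). H4C15, H4C2, H4C5 and H3C2 had a polyI:C peak over their start, of 526, 239, 210 and 331 bases, and no mock peak there. The Smad3 list of caSmad3 cells had 105 peaks at histone loci and the IRF3 list of HA cells 59.

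Shared peaks were wider than peaks of 1 list alone. Outside structural RNA and histone loci the median width was 164.5 bases for shared and 116 for mock-only peaks in the mock list. In the polyI:C list it was 217 bases for shared and 131 for polyI:C-only peaks. The narrowest width in the lists is 99 bases, and 22 of the 103 mock-only peaks (21.4%) had it, against 11 of the 158 shared mock peaks (6.96%). Among polyI:C peaks 78 of the 491 that stood alone (15.9%) and 4 of the 154 shared ones (2.6%) had that width. Peaks of 1 list alone therefore lay nearer the narrowest width the lists hold, in both libraries.

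**Figure D3:**
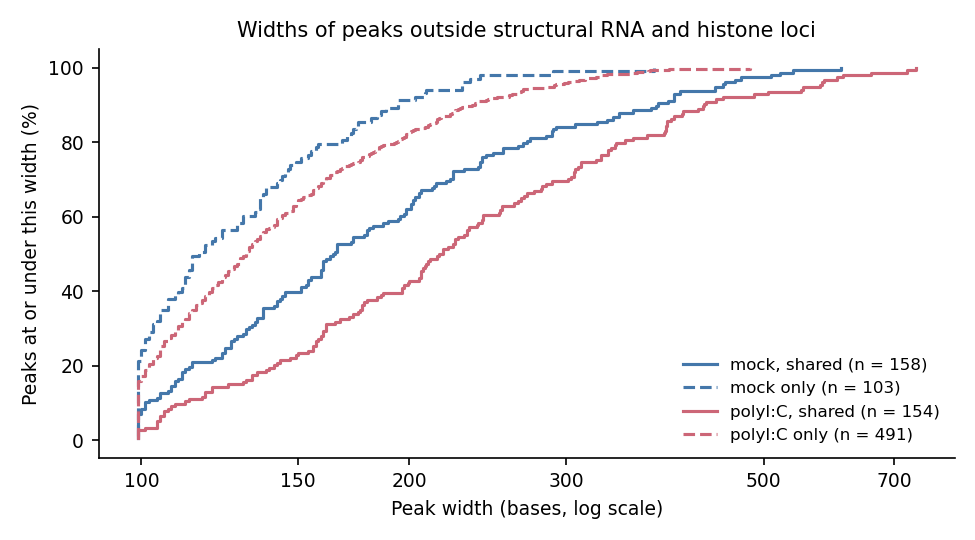
Share of peaks at or under each width (bases, log scale) outside structural RNA and histone loci, for shared (solid) and unshared (dashed) peaks of the mock and polyI:C lists. The dashed lines lie to the left of the solid lines, and the shared polyI:C peaks (median 217 bases) lie to the right of the shared mock peaks (median 164.5 bases).

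Where both lists had a peak, the polyI:C peak was usually the wider. This held for 108 of 158 shared mock peaks outside those loci, with 48 narrower and 2 equal and a median ratio of widths of 1.18, and for 74 of 89 at them, with a median ratio of 1.12. Each mock peak was compared with the widest polyI:C peak it overlapped. A polyI:C peak over several mock peaks was therefore counted for each of them, which favours the polyI:C side. Width depends on depth and on the caller's threshold as well as on binding, and these cannot be told apart. For each shared mock peak the polyI:C peak with the most bases in common was then taken. The median number of those bases was 181, and in 224 of 247 (90.7%) that polyI:C peak covered at least 50% of the mock peak. Only 3 shared mock peaks rested on 10 bases or fewer, and the peaks beside ID1 and PLAU described below are among them.

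Most unshared peaks had no peak of the other list nearby. Of the 103 mock-only peaks outside those loci, 14 lay within 500 bases of a polyI:C peak, 21 within 10 kb, and 69 (67.0%) over 100 kb away. Of the 491 polyI:C-only peaks 23 lay within 500 bases of a mock peak, 41 within 10 kb and 404 (82.3%) over 100 kb away. The polyI:C list has more peaks, so a mock-only peak has more places to find a neighbour than the reverse.

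Peaks of both lists were mostly distal. Outside structural RNA and histone loci 29 of 261 mock peaks (11.1%, 7.57 to 15.6) and 116 of 645 polyI:C peaks (17.98%, 15.1 to 21.2) were centred no more than 1 kb from where a protein-coding gene begins or ends. Over 50 kb from any such end lay 40.2% of mock and 38.1% of polyI:C peaks. By status the share at gene ends was 10.1% (5.90 to 15.9) for shared mock peaks, 12.6% (6.90 to 20.6) for mock-only peaks and 20.4% (16.9 to 24.2) for polyI:C-only peaks. The interval of the polyI:C-only peaks overlaps that of the mock-only peaks and not that of the shared ones.

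The start site of a gene lay under a mock peak for 13 genes and under a polyI:C peak for 65, with 10 in both, of 27305 genes with a start in the table. That table holds no start on chromosome 8, so genes there were not counted. The coding genes among the 10 were CCDC80, OGA, EIF4A2, C12orf57 and H3C14, of which the last 2 count as snRNA and histone loci. At CCDC80 the mock peak was 268 bases (chromosome 3, 112641035 to 112641302) and the polyI:C peak 301 bases (112641045 to 112641345). At OGA they were 212 bases (chromosome 10, 101818427 to 101818638) and 242 bases (101818405 to 101818646). EIF4A2, an RNA helicase of translation initiation, had a mock peak of 127 bases and a polyI:C peak of 196 bases over its start. All 3 pairs overlapped IRF3 peaks of HA and of caSmad3 cells, and a Smad3 peak of caSmad3 cells. MALAT1, an abundant nuclear long non-coding RNA, also had both, of 164 bases (mock) and 254 bases (polyI:C).

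A protein-coding gene was counted if any part of a peak fell at most 10 kb from either end, outside or inside the gene. After mock transfection 118 of 20037 genes were counted (0.589%), after polyI:C 361 (1.8%) and in both 87 (0.434%). The genes in both were 73.7% of the mock genes and 24.1% of the polyI:C genes. Without structural RNA and histone loci the counts were 81 (0.404%), 283 (1.41%) and 54 (0.27%). Counting also peaks anywhere inside the gene gave 184 (0.918%) and 506 (2.53%). These shares are the background for the gene groups that follow, which describe named genes and are not tests of enrichment.

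ID genes were listed in both libraries. ID1 and ID3, 2 of the 4 genes of the family, had peaks in each. ID1 had 3 mock peaks: 376 bases (chromosome 20, 31604104 to 31604479), 109 bases (31605172 to 31605280) and 202 bases (31607312 to 31607513). It had 4 polyI:C peaks: 136 bases (31603004 to 31603139), 105 bases (31605069 to 31605173), 315 bases (31606728 to 31607042) and 341 bases (31607321 to 31607661). The gene runs from 31605289 to 31606510 on the plus strand. The 376-base mock peak, centred 998 bases before the start, had no polyI:C counterpart, and it was the widest mock-only peak outside structural RNA and histone loci. Smad3 of caSmad3 cells had a peak of 466 bases there (31604124 to 31604589), and IRF3 had peaks of 117 bases in HA cells and 389 bases in caSmad3 cells. The peaks just before the start met by 2 bases only: the mock peak ended 9 bases before the gene and the polyI:C peak 116 bases before it. In caSmad3 cells 1 Smad3 peak of 641 bases (31604929 to 31605569) covered both. The peaks beyond the gene's upper end, 202 and 341 bases, overlapped over most of their length.

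ID3 had a mock peak of 213 bases (chromosome 1, 23556834 to 23557046) and a polyI:C peak of 553 bases (23556574 to 23557126) around the same place. Both lay beyond the 3′ end of the gene, which runs from 23557926 to 23559501 on the minus strand. A further polyI:C peak of 121 bases, centred 3038 bases before the start, overlapped no peak of the other 3 lists. Neither library had a peak within 10 kb of the other 2 ID genes.

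**Figure D4:**
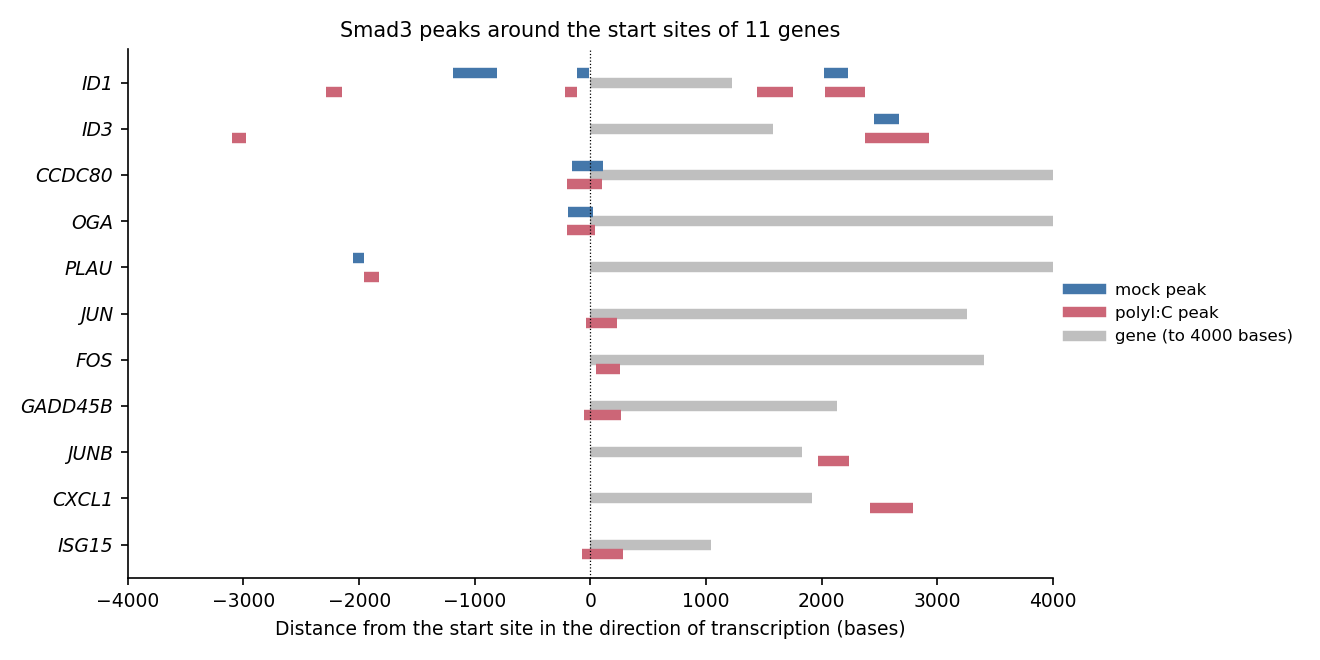
Smad3 peaks from 4000 bases before to 4000 bases after the start site of 11 genes, in the direction of transcription, with mock peaks above and polyI:C peaks below each gene. ID1, ID3, CCDC80, OGA and PLAU have peaks of both libraries, and JUN, FOS, GADD45B, JUNB, CXCL1 and ISG15 have a polyI:C peak and no mock peak.

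Among 17 TGF-beta ligands and latent binding proteins, LTBP2 had peaks in both libraries. LTBP2 belongs to the family of latent TGF-beta binding proteins of the matrix. The mock peak was 344 bases (chromosome 14, 74619732 to 74620075) and the polyI:C peak 328 bases (74619772 to 74620099), 7495 and 7535 bases upstream of the gene. A mock-only peak of 99 bases lay at 74618540 to 74618638. Inside the gene a second shared pair had 109 bases (mock) and 196 bases (polyI:C). ITGB6, the beta chain of an integrin that activates latent TGF-beta, had 2 polyI:C peaks of 155 and 109 bases, 5397 and 5604 bases upstream, and no mock peak. BMP7 had a polyI:C peak of 291 bases inside the gene, 43935 bases from its nearer end.

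None of 19 receptors and signalling SMADs and none of 18 feedback inhibitors had a peak within 10 kb in either library. For lists of that size 3 counts would make 15.8% and 16.7%. At PMEPA1, an inhibitor that traps receptor-activated SMADs, a shared pair of 108 bases (mock) and 99 bases (polyI:C) lay 37244 and 37212 bases upstream, outside the 10 kb window. A polyI:C-only peak of 99 bases lay inside PMEPA1. The Smad3 list of caSmad3 cells counted 7 of the 18 inhibitors within 10 kb, where its background was 16.8% of all coding genes.

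ID1, ID3, PLAU and COL1A1, which had mock peaks within 10 kb, were counted in other lists. Of the 41 genes listed here as TGF-beta and Smad3 targets, 0 had a mock peak within 10 kb, where 3 counts would make 7.32%. A polyI:C peak was found for 5 of them (12.2%). The 5 were CCN1, JUNB, GADD45B, TGFBI and MMP2, with 6 peaks of 156 to 317 bases, none of them shared. All 6 overlapped a Smad3 peak of caSmad3 cells and 3 an IRF3 peak of HA cells. At GADD45B, a stress-response protein, the polyI:C peak was 317 bases over the start (chromosome 19, 2476075 to 2476391). CCN1, a matricellular protein, had a polyI:C peak of 179 bases inside the gene (chromosome 1, 85581228 to 85581406) and one of 164 bases 375 bases above it. A further CCN1 peak of 330 bases, 23216 bases from the gene, was among the 10 widest polyI:C-only peaks outside structural RNA and histone loci. TGFBI, a TGF-beta induced matrix protein, had a polyI:C-only peak of 182 bases 8229 bases before the gene (chromosome 5, 136020578 to 136020759) and another of 291 bases 11604 bases before it. A shared TGFBI pair of 105 bases (mock) and 113 bases (polyI:C) lay farther out, 22032 and 22031 bases before the gene. MMP2, a collagenase of type IV collagen, had a polyI:C peak of 156 bases, 7793 bases below the gene. At TGFBI the lists therefore differed within the 10 kb window and shared a site outside it.

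Matrix, plasminogen and actin genes were few in both lists. Of 31 matrix and mesenchymal genes, COL1A1 and VIM had a mock peak and COL1A1 a polyI:C peak. The COL1A1 mock peak of 452 bases (chromosome 17, 50178272 to 50178723) was met by 2 polyI:C peaks of 99 bases (50178375 to 50178473) and 265 bases (50178523 to 50178787). They lay over 5 kb below COL1A1, which encodes a chain of type I collagen, and nearer to SGCA, a sarcoglycan gene. VIM, the gene of the filament protein vimentin, had a mock-only peak of the narrowest width, 99 bases, 371 bases inside the gene. PLAU, the urokinase gene, had a mock peak of 99 bases (chromosome 10, 73906776 to 73906874) and a polyI:C peak of 135 bases (73906873 to 73907007), which met by 2 bases. In caSmad3 cells 1 Smad3 peak of 422 bases (73906738 to 73907159) spanned both. ACTG1, a cytoplasmic actin gene, had a shared pair of 99 bases (mock) and 139 bases (polyI:C), 1024 and 915 bases below the gene. LOXL2, ACTN4 and PALLD had a polyI:C peak inside the gene over 10 kb from its ends, of 144, 160 and 148 bases.

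Some AP-1 and other immediate early genes had a polyI:C peak within 10 kb, and no member of either list had a mock peak there. Of 13 AP-1 genes FOS, JUN and JUNB had a polyI:C peak (23.1%) and 0 had a mock peak, where 3 counts would likewise make 23.1%. The peaks were 206 bases at FOS (chromosome 14, 75278876 to 75279081), 264 bases over the start of JUN (chromosome 1, 58783819 to 58784082) and 267 bases just beyond JUNB (chromosome 19, 12793456 to 12793722). Each overlapped IRF3 peaks of HA and caSmad3 cells and a Smad3 peak of caSmad3 cells. Outside the 10 kb window, a shared pair of 151 bases (mock) and 386 bases (polyI:C) lay 64853 and 64801 bases upstream of JUN. Of 21 further immediate early genes, IER2, IER3 and ZFP36L1 had a polyI:C peak (14.3%), of 139, 164 and 120 bases, and none had a mock peak. IER5L, outside these lists and named for its 3 polyI:C peaks (156, 147 and 142 bases), had a mock peak of 99 bases elsewhere in the gene. AXL, a receptor tyrosine kinase and YAP target, had a polyI:C-only peak of 198 bases inside the gene, and WWTR1, which encodes TAZ, had 2 of 110 and 99 bases far inside it.

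Of 50 IRF3 targets and interferon-stimulated genes, 4 had a polyI:C Smad3 peak (8.0%) and 0 a mock peak, where 3 counts would make 6.0%. None of these 4 peaks overlapped a Smad3 peak of caSmad3 cells, although 78.6% of all polyI:C-only peaks outside structural RNA and histone loci did, and 3 of the 4 overlapped an IRF3 peak of HA cells. At ISG15 the Smad3 peak was 355 bases over the start (chromosome 1, 1013427 to 1013781), inside an IRF3 peak of 750 bases in HA cells (1013056 to 1013805). ISG20, an antiviral exonuclease, had a peak of 118 bases inside the gene (chromosome 15, 88638750 to 88638867), which met an IRF3 peak of HA cells and none of caSmad3 cells. PLSCR1, an interferon-induced scramblase, had a peak of 99 bases 192 bases upstream of the gene (chromosome 3, 146544799 to 146544897). IRF2, a regulator that binds the same elements as IRF3, had a peak of 99 bases 3880 bases below the gene that overlapped no peak of the other lists. In HA cells after polyI:C but without TGF-beta, 36 of the 50 genes had an IRF3 peak within 10 kb, as did 22.5% of all coding genes. That IRF3 list holds 4125 peaks, against 786 in the polyI:C Smad3 list.

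CXCL1, a neutrophil chemokine, was the only one of 24 NF-kB and inflammatory genes with a Smad3 peak in the mock or polyI:C list, of 370 bases after polyI:C (chromosome 4, 73871811 to 73872180), 503 bases beyond the gene. It was among the 10 widest polyI:C-only peaks outside structural RNA and histone loci. MCL1, an anti-apoptotic BCL2 relative, was the only one of 28 cell death genes in these 2 lists, with 159 bases over a gene end after polyI:C. The Smad3 list of caSmad3 cells counted 4 of the 24 and 5 of the 28, where its background was 16.8% of all coding genes. Of the markers of other cell states, 0 of 18 epithelial and luminal and 0 of 29 silent tissue-specific genes had a peak in either library, where 3 counts would make 16.7% and 10.3%. CSF1R and CD68, 2 of 17 matched leukocyte markers, had a polyI:C peak of 268 and 105 bases, both also listed for Smad3 in caSmad3 cells. The CD68 peak lay 6865 bases below CD68 and 52 bases from EIF4A1, a translation helicase gene. A mock-only peak of 114 bases lay inside PTPRC, a further leukocyte marker, 43246 bases from its nearer end, and overlapped none of the other 3 lists. Of 22 housekeeping genes POLR2A had a peak in each library, at different places: 113 bases over the start (mock) and 148 bases 465 bases inside the gene (polyI:C). CLTC, a clathrin chain, likewise had 2 mock peaks of 99 and 109 bases before the start and a polyI:C peak of 99 bases over it. Counting genes in both libraries therefore takes in genes without a shared peak.

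Peaks of either list alone mostly recurred in the Smad3 list of caSmad3 cells. Outside structural RNA and histone loci 155 of 158 shared mock peaks (98.1%, 94.6 to 99.6), 77 of 103 mock-only peaks (74.8%, 65.2 to 82.8) and 386 of 491 polyI:C-only peaks (78.6%, 74.7 to 82.2) overlapped a Smad3 peak there. The intervals of the mock-only and polyI:C-only peaks overlap. With at least 50% of both peaks in common, the shares over all sites were 49.4% (shared), 26.4% (mock-only) and 27.55% (polyI:C-only). The caSmad3 cells had received polyI:C and no TGF-beta. The caSmad3 list is the longer, so shares in the other direction would be small.

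Overlap with IRF3 was more common at gene ends than away from them for peaks of each status. Of polyI:C-only peaks outside those loci, 52 of 100 within 1 kb of a gene end (52.0%) and 27 of 391 farther away (6.91%) overlapped an IRF3 peak of HA cells. For mock-only peaks the counts were 8 of 13 and 3 of 90, and for shared mock peaks 8 of 16 and 24 of 142. Among the mock peaks farther away, 6 lay below 10 Mb on chromosome 21, and each overlapped an IRF3 peak of HA cells. They may lie on unlisted rRNA copies. Without regard to position the shares were 16.1% (12.9 to 19.6) for polyI:C-only, 10.7% (5.45 to 18.3) for mock-only and 20.25% (14.3 to 27.4) for shared peaks. The mock library had received no polyI:C, and its peaks were set against IRF3 peaks of cells that had.

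**Figure D5:**
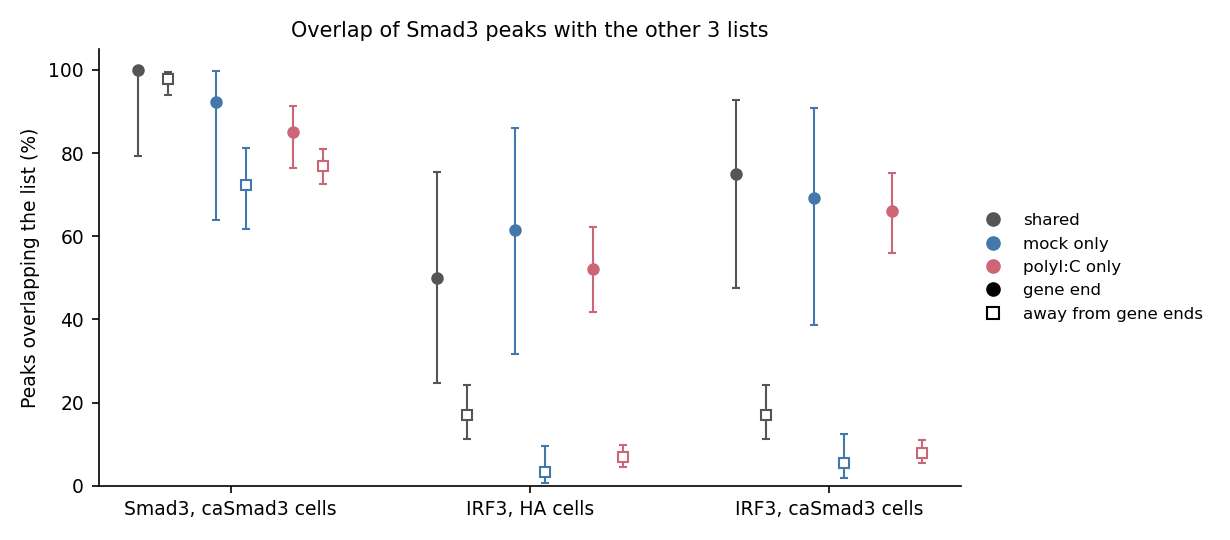
Share of Smad3 peaks outside structural RNA and histone loci that overlap each of the other 3 lists, with 95% Clopper-Pearson intervals, by status (shared, mock only, polyI:C only) and position (filled circles up to 1 kb from where a coding gene begins or ends, open squares farther away). Overlap of at least 1 base with Smad3 of caSmad3 cells is high in all groups, while that with IRF3 is high at gene ends and low away from them for each status.

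The letters of the promoters were described in windows of 300 bases, from 250 before to 50 after each RefSeq start. Promoters under peaks at structural RNA and histone loci were left out of the sets under peaks and kept among all promoters. Of the 22197 coding promoters given, 98 (of 90 genes) overlapped a polyI:C peak and 18 a mock peak. CAGAC was found on either strand in 46 of the 98 (46.9%, 36.8 to 57.3) and in 8 of the 18 (44.4%, 21.5 to 69.2), against 44.8% of all promoters. TGACGTCA, the full cyclic AMP response element, was found in 9 of the 98 (9.18%, 4.29 to 16.7) and 0 of the 18 (up to 18.5%), against 2.26% of all. GAAANNGAA was found in 11 of the 98 (11.2%, 5.74 to 19.2) and 3 of the 18 (16.7%, 3.58 to 41.4), against 7.10% of all. GGGCGG was in 65.3% and 72.2%, against 56.3%. TGANTCA, the AP-1 element, was in 7.14% and 5.56%, against 6.15%. GTCTAGAC was in 0 of the 98 and 0 of the 18, against 0.216% of all. GGCGCC was in 20.4% under polyI:C and 11.1% under mock peaks, against 24.3% of all. GGAATG was in 11.2% under polyI:C and 16.7% under mock peaks, against 12.2% of all. Neighbouring starts of 1 gene share letters, so these promoters are not independent, and a match is not a binding site.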

How the data were processed

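Smad3 and IRF3 were measured by ChIP-seq in BT549 cells, 1 library per group, and groups were taken from the labels. Chromatin was precipitated with an anti-Smad3 or anti-IRF3 antibody and libraries were amplified by PCR, per the labels' protocols. Per the submitters' processing notes, Bowtie2 2.2.2.6, MACS2 2.1.0 and the build hg38 were used. The authors deposited 1 peak list per library, and the deposited values are positions in bases, with no count or score. Calling threshold, input control and duplicate handling: not given in the sources used here.

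Peaks were compared by overlap of at least 1 base and assigned to genes of a RefSeq table (GRCh38.p14) within 10 kb of either end (Python 3.11.15, pandas 2.3.3, SciPy 1.17.1). Overlap counts were checked against bedtools 2.31.1 and tested on simulated data. Start sites and upstream letters came from RefSeq promoters, which cover 15843 of 20037 coding genes. Of 393 genes in 18 lists 391 matched. The members and lists were chosen with earlier results of these data known. Named genes were the list members with a peak within 10 kb, the genes nearest the 10 widest peaks of each status, coding genes with 3 or more peaks, and those with a start under peaks of both libraries. Others (among them BMP7, PMEPA1, WWTR1, MALAT1, POLR2A, CSF1R, CD68, EIF4A1 and PTPRC) were named after their values were seen. No test was made between libraries. Alternatives changed the overlap, window, width and class of peaks.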

Additional observations from a re-analysis of the deposited data

How the results depend on the processing

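The values that moved beyond the main interval, or a count by over 1.5 times, are given by setting. Under each overlap setting the shared share was higher for mock than for polyI:C. Near-equal shared counts over lists of unequal length must give that order. Shared mock peaks (main 70.0%) were 52.1% with overlap of at least 50% of both peaks, 83.05% among the wider 50% of peaks, 60.5% without structural RNA and histone loci and 60.0% also without chromosome 21 below 10 Mb, an alternative added after seeing the data. Shared polyI:C peaks (main 30.3%) were 23.4%, 36.6%, 23.9% and 23.3%, and 34.7% with a gap of up to 500 bases. Peaks at structural RNA or histone loci were 42.9% (mock) and 27.5% (polyI:C) among the wider 50%, 20.85% and 13.06% after merging within 1 kb, and for polyI:C 22.4% within 10 kb of such a gene and 14.6% by overlap with it. Peaks at coding gene ends in polyI:C were 17.98% without those loci; with genes of every biotype 41.1% (mock) and 41.2% (polyI:C) lay at ends. Genes with a peak (mock, polyI:C, both) were 49, 177 and 36 within 1 kb, 376, 987 and 288 within 50 kb, and 50, 173 and 45 for the wider 50%; without those loci 54 in both; with peaks inside genes, added after seeing the data, 184 in mock and 132 in both. Overlap with Smad3 of caSmad3 cells at 50% of both peaks was 49.4% (shared), 26.4% (mock-only) and 27.55% (polyI:C-only), from 98.8%, 75.5% and 80.8%; with IRF3 of HA cells it was 34.01%, 1.89% and 6.02%, from 48.6%, 12.3% and 23.4%, and without those loci 20.25% (shared) and 16.1% (polyI:C-only). Of 55 alternative values 17 stayed within these bounds and 38 moved. No paired analysis was possible because each group held 1 library and no test was made. Depth is unknown, and 1 library a side limits every comparison; the causes of these shifts were not tested.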

Other observations

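Peaks of both libraries were uneven over the chromosomes. Outside structural RNA and histone loci chromosome 20, which holds 2.68% of protein-coding genes, held 30 of 261 mock peaks (11.5%) and 64 of 645 polyI:C peaks (9.92%). It held 6.14% of all Smad3 peaks of caSmad3 cells, those at such loci included. Chromosome 8 had 30 mock peaks (11.5%) and 64 polyI:C peaks (9.92%) with 3.57% of coding genes, and chromosome 9 had 31 (11.9%) and 59 (9.15%) with 3.88%. Chromosome 19, with 7.24% of coding genes, held 3 mock peaks (1.15%) and 27 polyI:C peaks (4.19%).

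The widest sites lay at genes of varied function. Of the 10 widest shared peaks outside structural RNA and histone loci, of 441 to 610 bases, 6 overlapped an IRF3 peak of HA cells and 10 a Smad3 peak of caSmad3 cells. They included a mock peak of 509 bases and a polyI:C peak of 389 bases just above VMP1, an autophagy gene, the pair below COL1A1, and pairs near SNX5 and HRH1. Of the 10 widest, 3 lay below 10 Mb on chromosome 21, and all 3 overlapped an IRF3 peak of HA cells. In that stretch 38 mock and 36 polyI:C peaks stood, and 32 and 30 of them lay on rRNA genes. The 6 others of each list had no gene of structural RNA within 1 kb in the table and were therefore counted as outside such loci, although the table may hold only a part of the rRNA copies there. The widest polyI:C-only peak outside those loci, of 482 bases, lay inside RHOBTB2, and the peaks of 391 bases near LRRC63 and PTGES followed. PTGES encodes prostaglandin E synthase. These 3 overlapped a Smad3 peak of caSmad3 cells and no IRF3 peak.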
